A study of Mus musculus with 12 samples.

Results

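The genes that encode the proteins of the cytosolic ribosome were followed through a ChIP-seq data set of histone H3 acetylated at lysines 9 and 14 (H3K9/14ac) in mouse T helper 17 (Th17) cells. They were taken as the protein-coding genes whose symbol is Rpl or Rps plus a number, leaving out the Rps6k kinases and Rps19bp1, together with Rplp0, Rplp1, Rplp2 and Rpsa. This gave 90 genes of the 21887 protein-coding genes of the GRCm38 annotation, and 82 of them had a region within 2 kb of a gene end that was tested for differential binding. The wild type (WT) was set against a knockout (KO) with the genotype Slc2a3-fl/fl Cd4-cre, in which the gene of the glucose transporter GLUT3 is floxed and Cre is driven by the Cd4 promoter, in both cases on C57BL/6. Whether the WT cells carried Cd4-cre, the age and sex of the mice, and whether libraries of a genotype came from separate mice are not given in the labels, so the spread between libraries, and any p-value resting on it, may be technical. Cells of both genotypes had been naive CD4 T cells grown for 3 days under Th17 conditions and then restimulated for 3 h with PMA and ionomycin, with Bref A and Monensin added. Each genotype had 3 ChIP libraries, and the 6 were barcoded inside their nuclei (the RELACS method) and immunoprecipitated as a single pool. The 6 input libraries were not used here.

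Ribosomal proteins assemble with ribosomal RNA into a small subunit, which reads the mRNA, and a large subunit, which joins amino acids and carries the stalk that binds elongation factors. Growing cells need all of them in matched amounts, and their genes are among the most strongly transcribed housekeeping genes. Many of their transcripts begin with a C followed by a run of pyrimidines, the 5′ terminal oligopyrimidine (5′TOP) motif, through which the kinase complex mTORC1 and the RNA-binding protein LARP1 control their translation. Acetylated H3K9 and H3K14 mark active promoters, where the mark usually extends from the start into the first part of the gene. Naive T cells build ribosomes in quantity when they are activated and begin to divide.

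Start positions came from RefSeq promoter sequences of build GRCm38.p6, which held 69 of the 90 genes. The stretches that follow run from 40 bases before the start to 19 bases after it, 5′ to 3′ on the gene's strand. They are shown because many hold 1 of 2 sequence features that were more frequent in these promoters than in the other promoters of the table. In the first set the capitals mark a pyrimidine run as in a 5′TOP transcript. A promoter was counted when at least 5 consecutive C or T began at any base from 2 before to 2 after the annotated start, and the capitals cover the whole run, which can reach further upstream.
Rpl27a, chr7:109519155-109519214, plus strand: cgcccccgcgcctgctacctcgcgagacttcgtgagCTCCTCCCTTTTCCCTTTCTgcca
Rpl13a, chr7:45128726-45128785, minus strand: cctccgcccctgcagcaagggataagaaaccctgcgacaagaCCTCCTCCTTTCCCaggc
Rps18, chr17:33955646-33955705, minus strand: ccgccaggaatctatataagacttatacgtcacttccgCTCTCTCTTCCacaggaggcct
Rpl15, chr14:18270967-18271026, minus strand: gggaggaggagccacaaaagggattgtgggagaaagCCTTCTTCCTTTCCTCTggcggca
Rps24, chr14:24490638-24490697, plus strand: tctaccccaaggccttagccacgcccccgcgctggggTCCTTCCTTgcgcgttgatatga

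In the next set the capitals mark CCGGAAG, the core recognized by ETS-family factors such as GABPA. Rps3a1 had the largest loss of acetylation among the ribosomal protein genes.
Rps3a1, chr3:86142649-86142708, minus strand: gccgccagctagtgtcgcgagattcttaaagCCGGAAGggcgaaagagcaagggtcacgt
Rps21, chr2:180257339-180257398, plus strand: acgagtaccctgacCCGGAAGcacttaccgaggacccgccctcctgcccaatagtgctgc
Rpl26, chr11:68901526-68901585, plus strand: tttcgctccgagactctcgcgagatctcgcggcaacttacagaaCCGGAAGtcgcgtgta

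Rps12, which was also among the most reduced genes, and the X-linked Rpl39 had no CCGGAAG in this stretch. Their pyrimidine runs do not begin within 2 bases of the start, so they are shown without capitals.
Rps12, chr10:23787190-23787249, minus strand: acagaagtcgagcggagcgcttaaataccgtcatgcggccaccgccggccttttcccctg
Rpl39, chrX:37085203-37085262, minus strand: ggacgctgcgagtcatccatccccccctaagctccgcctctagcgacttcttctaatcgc

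A pyrimidine run at the start was present in 39.1% of the 69 ribosomal protein promoters, against 14.5% of the 17492 protein-coding genes with a sequence. The start base itself was C in 34.8% of them, against 16.1%. Over the 300 bases from 250 before to 50 after the start, searched on both strands, CCGGAAG was present in 37.7% against 12.9%, and CTTTCC in 52.2% against 28.8%. CTCTTTCC, which contains CTTTCC, was found in 14.5% against 3.51%, and the YY1 core AAGATGG in 14.5% against 7.18%. The shares were close to those of other promoters for TATAAA (13.0% against 14.8%) and the E-box CACGTG (8.7% against 8.91%), CCAAT was present in 31.9% against 42.3%, and the GC box GGGCGG in 58.0% against 49.2%. A match is a description of these letters and not a measured binding site. By the authors' deposited table the 25 tested genes with CCGGAAG had a median log2 fold change (KO over WT) of -1.25 and the 37 without it -1.10. For the pyrimidine run the same table gave -1.09 in 24 genes with it and -1.17 in 38 without it.

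The genes shared further features that their symbols do not set. Their median length was 3169.5 bp, against 17169 bp for all protein-coding genes. A small nucleolar RNA (snoRNA), a class of guide RNAs for modifying ribosomal RNA, lay inside 30 of the 90 (33.3%), against 1.70% of all protein-coding genes, and 59 snoRNAs were hosted in all. The region that represented a gene was also within 2 kb of another gene's end in 51.2% of the tested genes, against 35.3%. The 82 tested genes were represented by 81 regions.

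Depth differed between the genotypes. The mean number of fragments over a base, solved from the peaks, was 3.99, 3.48 and 2.97 in WT replicates 1, 2 and 3 and 1.85, 2.29 and 1.92 in the KO replicates, a ratio of KO to WT means of 0.58. The targeted gene Slc2a3 had peak heights over mean coverage of 83.7, 86.4 and 93.3 in WT and 44.3, 42.8 and 46.9 in KO, and the authors' deposited table gives it a log2 fold change of -1.80 (FDR 8.24e-18). Of 9 Th17 and CD4 T cell markers, 7 had gene-end peaks in all 6 libraries, while Il17f had them in 3 WT and 1 KO library and Rora in none. Of 20 markers of other cells, Cd79a, Cd8b1 and Spi1 had peaks in all 6 libraries, others, Epor, Klf1 and Csf1r among them, in some, and 13, with Ms4a1, Cd8a and Lyz2 among them, in none. KO replicate 3 stood apart with 11 peaks on chromosome Y, where the other 5 libraries had 1 or 2. The part of these differences in the results that follow was not tested.

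Nearly every ribosomal protein gene carried the mark, in both genotypes. Of all 21887 protein-coding genes, 11715, 11657 and 11725 had a gene-end peak in WT and 11114, 11155 and 11096 in KO. In all 6 libraries 10412 had one. Of the 90 ribosomal protein genes, 82 had a gene-end peak in every WT library and 81 in every KO library. Rpl19 had none in KO, although a peak lay over its RefSeq start in all 6 libraries. The other 81 had gene-end peaks in all 6. These peaks were among the strongest in each list: the median gene's peak had a p-value better than 93.8% to 94.7% of peaks in the WT lists and 89.7% to 90.3% in the KO lists, against 83.4% to 83.8% and 81.8% to 82.2% for the median protein-coding gene with a peak. Lists of different lengths show no change by rank.

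The 8 genes without a peak in any library were Rpl37rt, Rpl34-ps1, Rps23rg1, Rps27rt, Rpl32l, Rpl10l, Rpl39l and Rpl31-ps12, and none of them had a tested region. All are named as copies or relatives of another ribosomal protein gene. Rpl10l and Rpl39l encode forms known from the male germ line. Of 13 such relatives, 5 did carry the mark, and by the authors' deposited table all 5 were lower in KO (Rps27l, Rpl22l1, Rpl3l, Rpl7l1 and Rpl36al, median log2 fold change -1.03). Of all tested protein-coding genes 64.3% were lower, with a median of -0.81. The regions that represent Rpl3l, a form known from heart and skeletal muscle, and Rpl7l1 lay 8150 and 10480 bp downstream of their starts and were shared with Msrb1 and 2310039H08Rik. Reads of such copies may map to the parent gene or the reverse.

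In the knockout, a gene-end region with lower acetylation was called for almost the whole set. The authors' deposited table called 79 of the 82 tested genes lower at an FDR under 0.05 (96.3%), against 64.3% of all 11627 tested protein-coding genes, and 3 higher (3.66%, against 6.4%). None of the 82 was left uncalled. The median log2 fold change was -1.16 by the authors' deposited table, against -0.81 for all tested genes. The region of lowest FDR stands for each gene, which favours changed regions, and each log2 fold change is that of its best window. Regions of the set were also wider than those of all tested genes (median 2700 bp against 1800 bp), and their peaks higher. The part of this in the calls was not tested. Peak summits gave a median KO over WT ratio of height over mean coverage of 0.85, against 1.00 for all genes. These ratios are linear and on another scale than the log2 fold changes above, and a summit need not lie in the best window. A fall of at least 1 on the log2 scale was called for 54 of the 82 genes by the authors' deposited table (65.9%, against 33.1%). When the values were rescaled to equal mean coverage, which raises every log2 fold change of the authors' deposited table by 0.30, the medians were -0.86 and -0.51, and 28 genes (34.1%, against 14.7%) were lower by at least 1. The FDR was kept as deposited, and no gene was tested again on that scale. The least changed of the 79 stood at -0.28 there. The table holds no values per library, so no library could be left out of these counts.

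**Figure D1:**
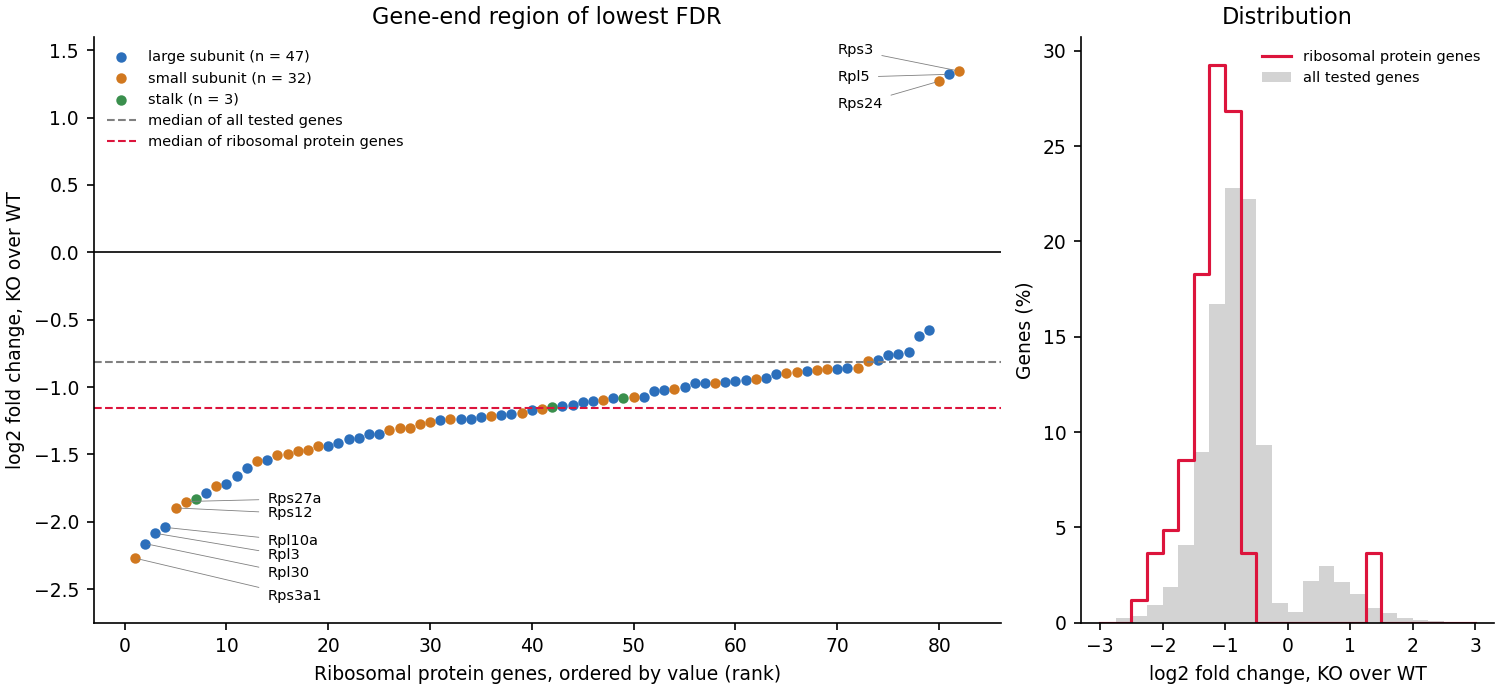
Log2 fold change (KO over WT) of the gene-end region of lowest FDR by the authors' deposited table. Left, the 82 tested ribosomal protein genes in order of value, coloured by subunit, with the medians of this set (-1.16) and of all tested genes (-0.81) as dashed lines; right, the share of genes per bin of 0.25 for both. The set lies below 0 except for Rps24, Rpl5 and Rps3.

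The fall was shared by both subunits. Of the large-subunit genes 46 of 47 were lower, with a median log2 fold change of -1.11 by the authors' deposited table, and of the small-subunit genes 30 of 32, with a median of -1.23. All 3 stalk genes were lower. Beside these counts and those that follow, 64.3% of all tested genes were lower and 6.4% higher. Rplp0, a common reference gene that encodes the base of the stalk, had a log2 fold change of -1.15 (FDR 8.51e-05, the authors' deposited table), Rplp1 -1.83 (FDR 3.19e-10) and Rplp2 -1.08 (FDR 4.55e-07). The authors' deposited table gave the 30 snoRNA hosts a median of -1.24 (28 lower, 2 higher) and the 52 tested genes without a snoRNA -1.09 (51 lower, 1 higher). Genes whose region also lay at another gene's end had a median of -1.11 there and those with a region of their own -1.17, both from the authors' deposited table. Differences between these groups of genes were not tested.

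The largest losses were found at Rps3a1, Rpl30, Rpl3, Rpl10a, Rps12 and Rps27a, with log2 fold changes of -2.27, -2.16, -2.09, -2.04, -1.90 and -1.85 by the authors' deposited table. Rps3a1 (gene ID 20091), a small-subunit protein, had a region at chr3:86140801-86144550, and 21 of its 25 windows of 150 bp were lower by the authors' deposited table (FDR 9.82e-18). Peaks covered 3783, 3791 and 3530 bp of its gene ends in WT and 2956, 2956 and 2492 bp in KO. Every WT library was above every KO library. Its peak height over mean coverage was 79.5, 108.0 and 110.4 in WT and 90.3, 87.8 and 96.4 in KO, so the genotypes overlapped in height while they did not in covered length.

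Rpl30 (gene ID 19946), a large-subunit protein, showed both. Peaks covered 4404, 3921 and 4404 bp in WT and 3055, 3027 and 2561 bp in KO, and the heights over coverage were 108.8, 118.0 and 129.0 in WT and 90.3, 70.7 and 83.3 in KO. Neither measure overlapped between the genotypes. Rpl3, a core protein of the large subunit near the peptidyl transferase centre, likewise had heights of 95.0, 120.3 and 105.7 in WT and 80.5, 78.6 and 79.2 in KO. Rps27a encodes a small-subunit protein fused to ubiquitin. Its heights were the largest of these 6 genes, at 163.2, 180.0 and 177.8 in WT and 119.5, 137.6 and 146.4 in KO, again without overlap. Rps12 did not overlap in height or in covered length. Rpl10a, whose region was shared with Fance and Tead3, overlapped in both. Peaks covered 2071.7 ± 640.2 bp of its gene ends in WT and 1580 ± 415.7 bp in KO (SD, n = 3).

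Well-known members lay closer to the middle of the set. Rpsa, the laminin-binding protein of the small subunit, had a log2 fold change of -1.44 (FDR 2.13e-08, the authors' deposited table). Rps19, which is mutated in Diamond-Blackfan anaemia, stood at -1.30 (FDR 1.22e-09, the authors' deposited table), and Rps6, the substrate of S6 kinase, at -0.94 (FDR 1.38e-04). Rpl11, which with Rpl5 binds Mdm2 when ribosome assembly is disturbed, had -1.14 (FDR 6.84e-04, the authors' deposited table). Rpl22 and its relative Rpl22l1, which regulate each other, had -0.86 and -1.03 by the authors' deposited table. Rpl13a, a frequent reference gene, had -1.31 in the region over its start, from the authors' deposited table. The heights of Rps6 did not overlap, at 83.2, 96.8 and 99.7 in WT and 69.2, 58.5 and 78.1 in KO. Those of Rps19 did, at 139.1, 151.9 and 173.7 in WT and 169.2, 158.5 and 175.5 in KO.

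The 4 X-linked genes were all lower, against 64.3% of all tested genes. Their log2 fold changes by the authors' deposited table were -1.72 for Rpl39, -1.41 for Rpl36a, -1.21 for Rpl10 and -1.16 for Rps4x. Rpl39 had heights over coverage of 62.7, 68.1 and 69.4 in WT and 48.6, 34.1 and 46.4 in KO, and Rps4x of 58.4, 66.0 and 63.0 in WT and 48.1, 41.9 and 41.1 in KO. Every WT library was above every KO library at both. Rpl10 overlapped, at 77.2, 99.1 and 91.2 in WT and 91.9, 98.7 and 92.2 in KO.

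At the other end, the smallest losses were those of Rpl36al, Rpl24 and Rpl19, with log2 fold changes of -0.58, -0.62 and -0.74 by the authors' deposited table (FDRs of 0.0354, 0.0108 and 0.0332). Peaks of Rpl36al covered 3191, 3191 and 2688 bp in WT and 3188, 3285 and 3085 bp in KO, so the genotypes overlapped. The annotated span of Rpl19 reaches far upstream of its RefSeq start, and the best window of its region sat at -3884 bp from that start, at the end of Cacnb1, with no peak in KO. The region over the start of Rpl19 had -0.87 (FDR 7.25e-04, the authors' deposited table) and a peak in all 6 libraries.

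The 3 genes called higher, Rpl5, Rps3 and Rps24, were represented by windows away from their starts. For Rpl5 (gene ID 100503670) the region of lowest FDR was chr5:107898901-107899350, which runs from -1627 to -1178 bp relative to the start, with 3 of 3 windows up and a log2 fold change of 1.32 (FDR 2.43e-07, the authors' deposited table). The region over the start of Rpl5 had -1.04 (FDR 2.16e-04, the authors' deposited table), and one further into the gene had -1.34 (FDR 1.13e-04). A peak lay over the upstream region in 1 WT and 3 KO libraries, and over the inner one in 3 WT and 0 KO libraries. Peaks covered 2435, 2078 and 3062 bp of the Rpl5 ends in WT and 2621, 2437 and 2540 bp in KO, a sum in which these opposite changes overlap.

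Rps3, a small-subunit protein at the mRNA entry channel, was represented by chr7:99473851-99477000, past its 3′ end and shared with Klhl35. All 21 windows there were up, with a log2 fold change of 1.34 (FDR 1.43e-06, the authors' deposited table). Over the start of Rps3 the change was -1.09 (FDR 1.63e-03), with 10 of 14 windows down by the authors' deposited table. At Rps24 a single region, chr14:24490651-24496500, ran from the start to the 3′ part of the gene. Of its 39 windows, 14 were up and 12 down by the authors' deposited table. Its log2 fold change of 1.27 (FDR 8.96e-07, the authors' deposited table) belongs to a window 4848 bp downstream of the start. In the 3′ part of Rps24, KO replicates 1 and 3 had a peak each, with heights of 75 and 80 fragments, and KO replicate 2 had peaks of 96 and, across the 3′ end of the gene, 31. The 4 WT peaks there had 64, 72, 46 and 38. At the start the heights over coverage were 89.2, 104.8 and 99.0 in WT and 79.5, 73.8 and 79.7 in KO, without overlap.

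**Figure D2:**
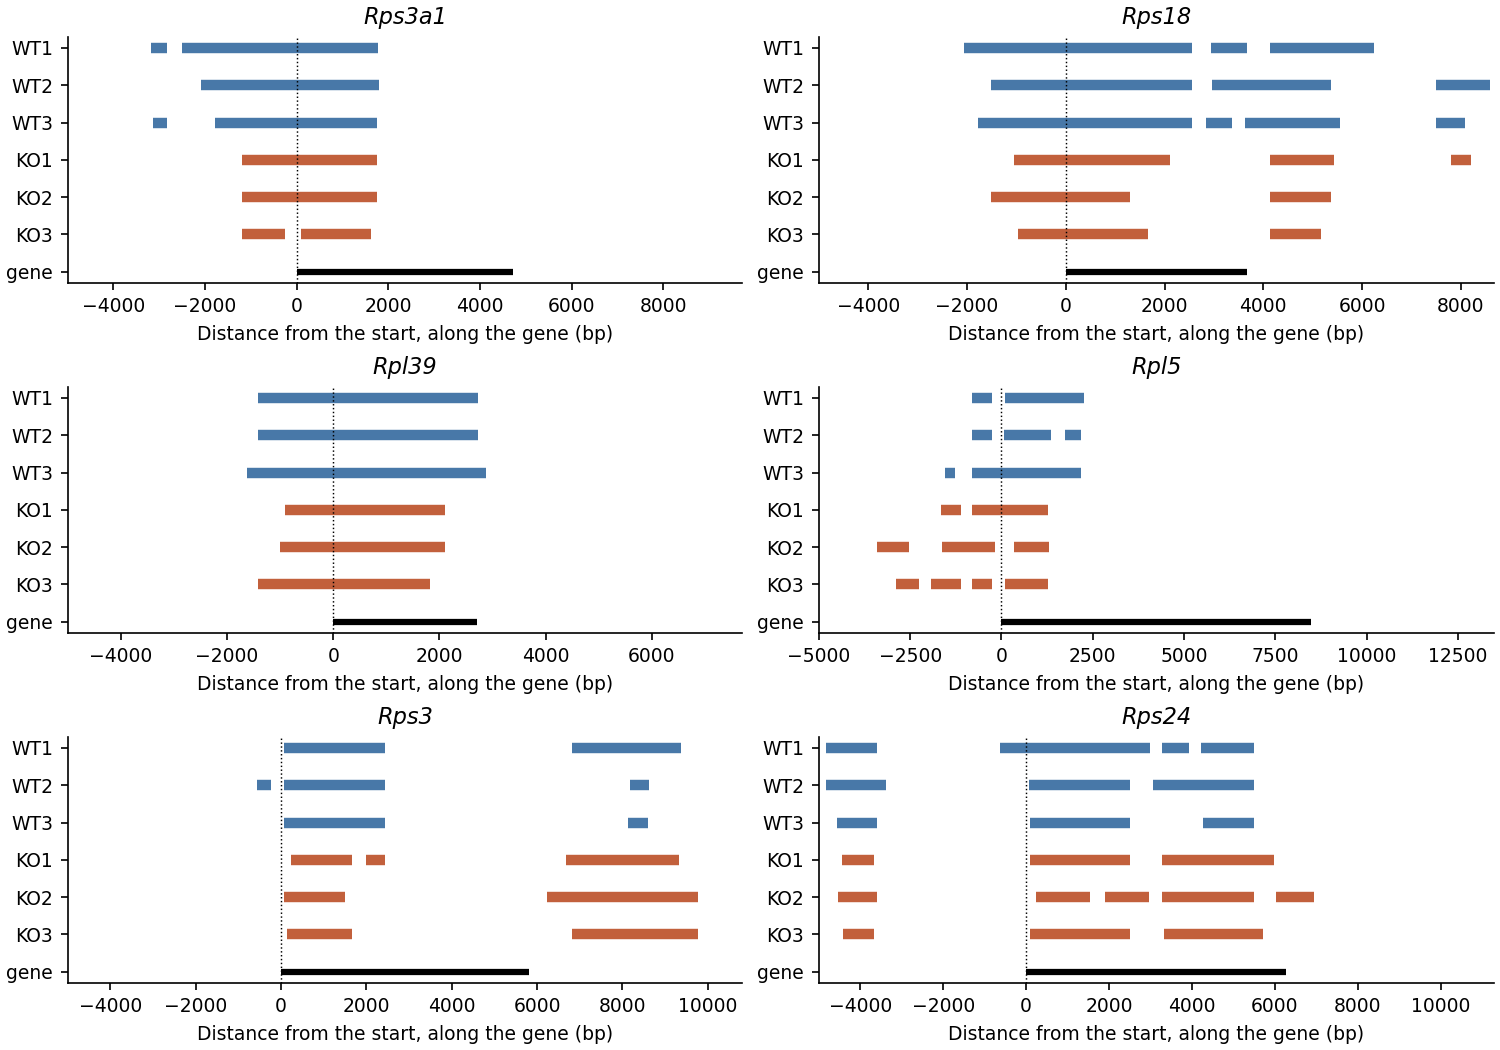
Peaks called in each ChIP library around 6 ribosomal protein genes (bars, WT in blue and KO in orange), by distance in bp from the RefSeq start along the gene; the black bar is the annotated gene from that start. Rps3a1, Rps18 and Rpl39 have shorter coverage in KO, while Rpl5 and Rps3 have KO peaks that are absent or narrower in at least 1 WT library away from the start.

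With the region over the RefSeq start standing for each gene, 52 of 54 genes were lower (96.3%, against 61.7% of 7888 genes) and 1 was higher (1.85%, against 4.04%, the authors' deposited table). The higher gene was Rps24. The remaining gene, Rpl35, had -0.56 (FDR 0.0507, the authors' deposited table).

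The loss was broad within the regions. Of the 1458 windows in the 81 regions that represent ribosomal protein genes, the authors' deposited table counts 74.1% as going down and 2.61% as going up, against 41.4% and 4.33% over the regions of all tested genes. Of all 115 gene-end regions of the set, 107 were lower (93.0%, against 55.3% of the 13154 gene-end regions of all genes) and 3 higher (2.61%, against 6.17%) by the authors' deposited table. The regions were also wider, at a median of 2700 bp against 1800 bp.

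Within these regions the best window tended to lie downstream of the start. With the program unnamed, the rule that picks the best window is unknown, so it need not be the most changed one. Over the 54 genes with a region at the start, the best window of the authors' deposited table had a median position 906.5 bp downstream of the start (quartiles 530.5 and 1353.5). For all 7888 genes the median by the authors' deposited table was 125.0 bp downstream. Peaks over the start also reached further downstream in ribosomal protein genes. In WT the mean of the library medians was 1957 bp, against 1312 bp for all protein-coding genes. The part of this in the window positions was not tested. The best window lay more than 500 bp downstream in 41 of the 54 genes (75.9%), against 36.0% of all genes, by the same positions of the authors' deposited table. Among genes called lower at the start, which removes the uncalled ones, the medians from the authors' deposited table were 906.5 bp for 52 ribosomal protein genes and 41.0 bp for 4865 genes. The best window lay more than 500 bp upstream in 8 of the 54 genes (14.8%, against 23.6% of all genes, the authors' deposited table). Rps3a1 and Rps12 were among these, with best windows at -1208 and -1517 bp from the start by the authors' deposited table. Of the pathway lists, ribosome biogenesis genes had a median of 669.0 bp, mitochondrial ribosomal proteins 349.5 bp and translation factors 132.5 bp by the same positions of the authors' deposited table.

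**Figure D3:**
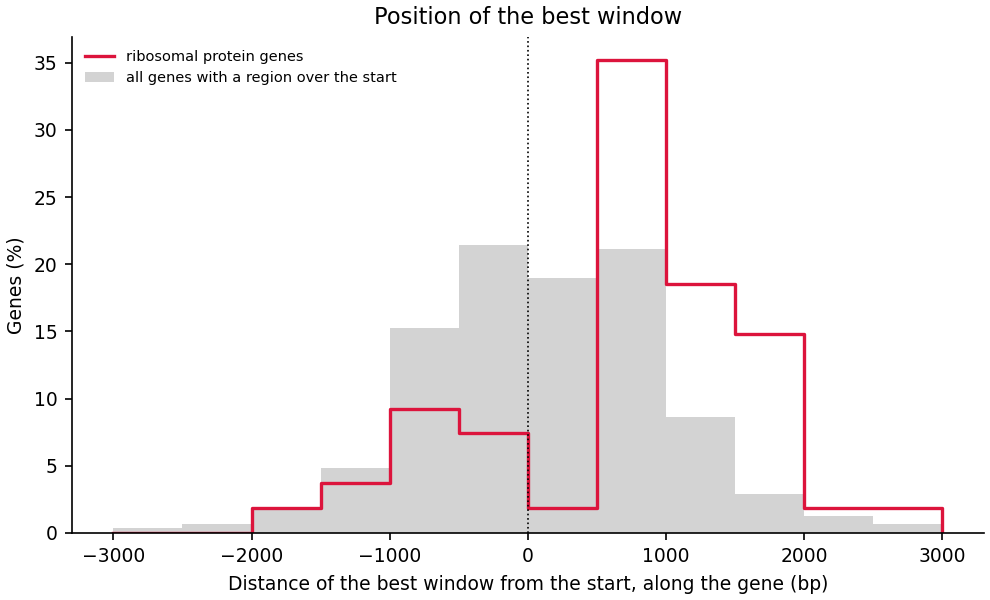
Distance in bp from the RefSeq start, along the gene, of the best window by the authors' deposited table, as the percentage of genes per 500 bp, for ribosomal protein genes (red line) and all genes with a region over the start (grey bars). Most of the red line lies beyond 500 bp downstream, where 41 of 54 ribosomal protein genes have their best window, and in the bin from 0 to 500 bp there is 1.

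In the peak lists, peaks over the start reached less far in KO on both sides of it. A peak lay over the start in all 6 libraries for 39 ribosomal protein genes and 5268 protein-coding genes. Its median reach downstream of the start was 1997, 1881 and 1993 bp in WT and 1628, 1505 and 1437 bp in KO for ribosomal protein genes, a KO mean of 0.78 of the WT mean. For all genes it was 1327.5, 1299 and 1309 bp in WT and 1137.5, 1170.5 and 1119 bp in KO, or 0.87 of the WT mean. Upstream, the ribosomal protein genes reached 1052, 1047 and 1041 bp in WT and 827, 877 and 809 bp in KO, a ratio of 0.80 beside 0.81 for all genes.

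Gene by gene, every WT library reached further downstream than every KO library in 27 of 39 ribosomal protein genes (69.2%), against 23.5% of all genes, and the reverse in 0, against 2.05%. Upstream the WT libraries reached further in 11 of 39 (28.2%), against 25.0%, and the KO libraries in 0, against 1.37%. Without KO replicate 3 the downstream count was 27, against 29.3%. Leaving a library out can only keep or raise such a count, so it is no check of it. Rps18 reached 2549, 2549 and 2549 bp downstream in WT and 2108, 1301 and 1675 bp in KO. Rpl39 reached 2718, 2718 and 2867 bp in WT and 2095, 2095 and 1817 bp in KO. At Rps6 the reach was 1416, 1433 and 1416 bp in WT and 1416 bp in every KO library, so it did not move. Such repeated edges are frequent in these lists, and the chromatin had been cut with the enzyme CviKi-1 per the labels' protocols. Lower coverage also shortens called peaks, so genotype and depth cannot be told apart in reach or covered length.

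**Figure D4:**
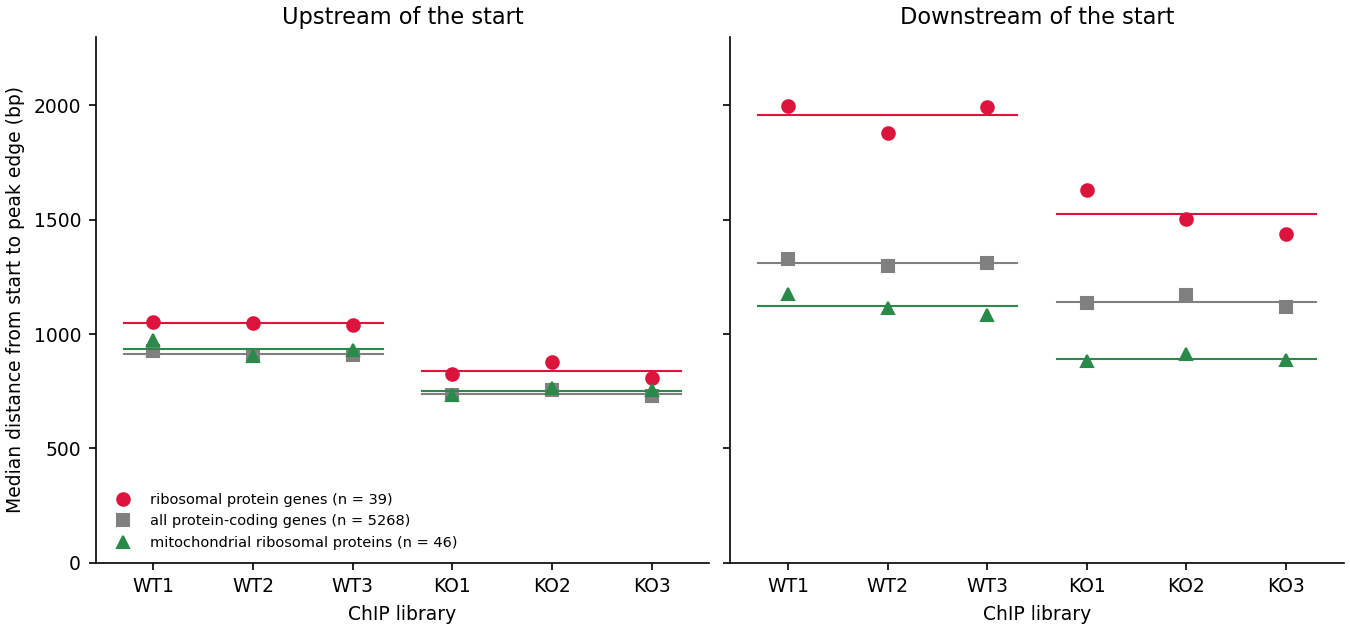
Median distance in bp from the RefSeq start to the upstream edge (left) and downstream edge (right) of the peak over the start in each ChIP library; points are libraries and lines genotype means. Downstream, ribosomal protein genes fall from 1881 to 1997 bp in WT to 1437 to 1628 bp in KO, while all protein-coding genes fall from 1299 to 1327.5 bp to 1119 to 1170.5 bp.

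The covered length followed. The median gene of the 90 had 2925 ± 41.0 bp of peaks in its gene-end windows in WT and 2275 ± 71.7 bp in KO (SD, n = 3), a difference of -649.8 bp, with every WT library above every KO library. Single genes showed this order in 62 of 82 cases (75.6%, against 38.3% of 12428 genes with a peak), and the reverse order in 0 (against 3.05%). Without KO replicate 3, which can only keep or raise the count, the first count was 64, against 43.6%. The widest gene, Rps18, a small-subunit protein, had 6798, 6484 and 6782 bp in WT and 4467, 4066 and 3678 bp in KO. A region 3089 bp downstream of its start, near B3galt4, held peaks in 3 WT and 0 KO libraries and had a log2 fold change of -1.55 (FDR 1.50e-07, the authors' deposited table). Rpl13a had 6416, 6417 and 6282 bp in WT and 5074, 4884 and 5256 bp in KO, again without overlap, and Rplp0 had 3757, 3283 and 3399 bp in WT and 2342, 2421 and 2581 bp in KO. Rpl35 overlapped, with 4712, 4596 and 4924 bp in WT and 4278, 4924 and 4049 bp in KO. With 3 libraries against 3, a two-sided exact permutation test of a single gene cannot go below p = 0.1, and 17 of the 26 genes named by rule that had a peak reached that value (lowest adjusted p = 0.153), so no single gene can be called from covered length.

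Peak height was then set against the mean coverage of the same library, which removes the overall difference in coverage, whatever its source. A change in acetylation shared by the whole genome could be removed with it. The median ribosomal protein gene had a summit of 80.0, 98.9 and 92.6 times the mean coverage in WT (90.5 ± 9.65, SD, n = 3) and 74.6, 73.8 and 78.1 in KO (75.5 ± 2.3). Every KO library was below every WT library, and the ratio of the means was 0.83. The median protein-coding gene had 48.1, 55.7 and 53.5 in WT and 53.0, 52.0 and 52.6 in KO, with a ratio of 1.00. Mitochondrial ribosomal protein genes had a ratio of 0.93. In 67 of the 81 genes with a peak in all 6 libraries (82.7%) the mean scaled height was lower in KO, against 49.9% of 10408 genes.

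The WT libraries were all above the KO libraries in 28 of the 81 genes (34.6%, against 16.7%), and the reverse held in 3 (3.7%, against 18.0%). These 3, singled out after their values were seen, were Rpl4, Rpl18 and Rps26. Rpl4, a large-subunit protein at the exit tunnel, had scaled heights of 128.6, 193.0 and 164.6 in WT and 203.8, 213.1 and 201.0 in KO. Its best window was lower by the authors' deposited table (log2 fold change -1.24, FDR 1.26e-06). That window need not lie in the peak that gave the height. WT replicate 1 had the lowest scaled heights of the WT libraries in both gene sets, and without it the WT libraries were above in 55 of the 81 genes, against 31.7%. Without KO replicate 3 the count was 36, against 21.4%. Both counts can only stay or rise when a library is left out.

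**Figure D5:**
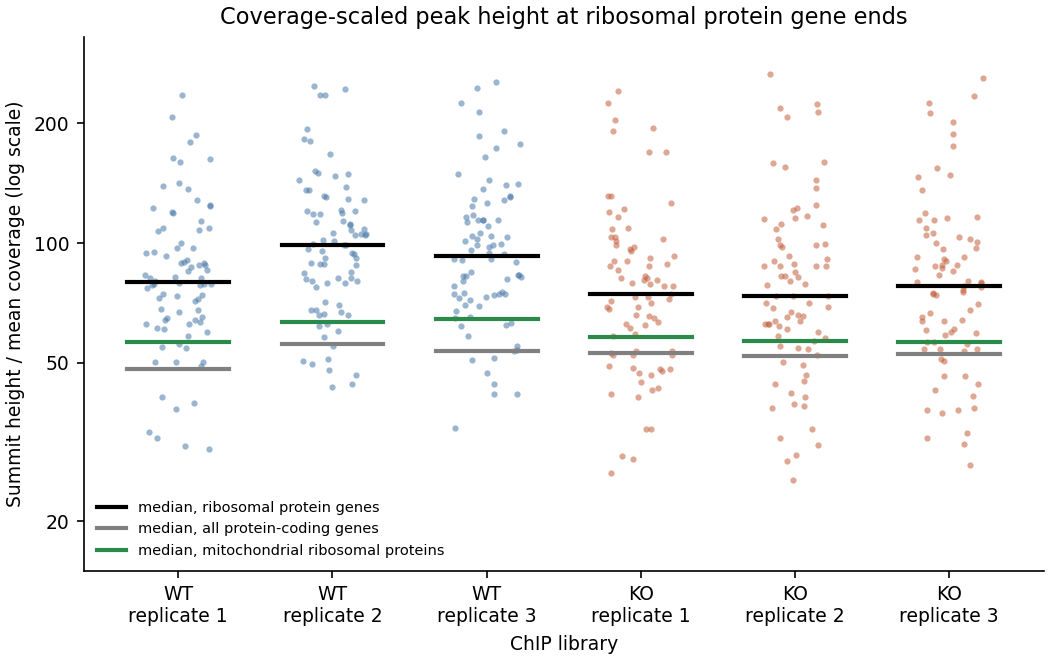
Summit height divided by the mean coverage of the library (log axis) for each ribosomal protein gene with a gene-end peak (points), by ChIP library. Bars are medians of the ribosomal protein genes (black, 80.0 to 98.9 in WT and 73.8 to 78.1 in KO), of mitochondrial ribosomal protein genes (green) and of all protein-coding genes (grey, 48.1 to 55.7 and 52.0 to 53.0).

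Genes of the wider translation machinery were lower as well. Of 29 tested ribosome biogenesis genes, 28 were lower (96.6%, against 64.3% of all tested genes) and 0 higher (against 6.4%) by the authors' deposited table, with a median log2 fold change of -1.24. They include Ncl, the nucleolar protein nucleolin (-1.84, FDR 1.31e-14), and Nop56, a core protein of snoRNA particles (-1.64, FDR 1.63e-12), both by the authors' deposited table. Of 38 translation factors, 33 were lower (86.8%) and 1 higher by the authors' deposited table, with a median of -1.01. The elongation factor Eef1a1 (-1.53, FDR 3.81e-15) and the helicase Eif4a2 (-2.03, FDR 2.02e-11) fell, and the scaffold Eif4g1 rose (1.24, FDR 2.74e-05), by the authors' deposited table. Of 77 mitochondrial ribosomal protein genes, 64 were lower (83.1%) and 2 higher by the authors' deposited table (Mrpl37 at 1.99 and Mrps18b at 0.69), with a median of -0.91. Mrps16 stood at -1.90 (FDR 1.10e-12) and Mrpl20 at -1.54 (FDR 1.28e-10, the authors' deposited table).

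Regulators of these genes were called lower at a share near that of all tested genes. Of 13 tested genes of mTORC1 signalling and 5′TOP control, 9 were lower (69.2%, against 64.3% of all tested genes) and 1 higher by the authors' deposited table, with a median of -0.86. The kinase Rps6kb2 (-1.47, FDR 5.12e-09) and the mTORC1 subunit Mlst8 (-1.39, FDR 2.46e-08) fell, and the translational repressor Eif4ebp1 rose (0.66, FDR 7.88e-03), by the authors' deposited table. Of 7 tested factors known at ribosomal protein promoters, 5 were lower (71.4%, against 64.3%) and 0 higher by the authors' deposited table, with a median of -0.78. Gabpa (-1.01, FDR 6.54e-04) and Max (-0.97, FDR 1.76e-04) were the 2 of lowest FDR by the authors' deposited table.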

How the data were processed

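H3K9/14ac ChIP-seq was measured in 6 libraries, 3 per genotype. Per the submitters' processing notes the tools include MACS2 2.2.6 for peaks, Bowtie2 2.3.5.1 and cutadapt 2.8, with mm10 and GRCm38 as the builds. Peaks were called per library, and the deposited lists give each peak a score, a fold over background as a linear ratio, and -log10 values of p and q, per the file headers and the MACS2 layout. Of the 12 lists, those called on paired-end fragments were used and the single-read lists served as an alternative. The authors' deposited table covers 40909 regions of 150 bp windows, each with a p-value, an FDR, how many windows go up or down, and a log2 fold change that belongs to its best window. For its program and scaling, the sources used here give no name.

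Spans of the 24128 significant regions were as deposited. The others were rebuilt by joining windows that overlap the single-read peaks, which returned 98.8% of the deposited spans exactly; 210 regions took the position of their best window, while 3 could not be located. A region or peak belonged to a gene when it overlapped, by at least 1 bp, the stretch from 2 kb before to 2 kb after either end of the gene, and the region of lowest FDR represented the gene. Starts and strands came from RefSeq sequences of GRCm38.p6 (69 of 90 genes; the most upstream entry).

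Summit heights and local background were solved from each peak's deposited fold and p-value, with a pseudocount of 1 as in MACS2. The height of a gene is that of its peak of best p-value within 2 kb of either gene end, picked separately in each library. Mean coverage was set to the lowest background value that 50 or more peaks have in common. On simulated data 99.9% to 100% of heights and 100% of 300 gene-end overlaps were returned. The shift to equal coverage came from 1305 regions with a summit within 150 bp of the best window in every library, in which log2 fold change and log2 height ratio correlated at 0.993 across regions. Counting error is not included in these values.

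Calls used the deposited FDR under 0.05. Covered length of single genes was compared by a two-sided exact permutation test over libraries with Benjamini-Hochberg adjustment. Named genes are the 6 lowest and 6 highest tested ribosomal protein genes, those untested or called higher, 9 well-known members, the 3 widest, the X-linked ones, and for each other list the 2 of lowest FDR and up to 3 called higher. Some genes that these rules name are not reported here. The members, lists and rules were chosen with earlier results of these data known. No 2 libraries of a genotype shared more than 7.44% of peaks exactly. Python 3.11.15, numpy 2.4.6, pandas 2.3.3, scipy 1.17.1 and matplotlib 3.10.9 were used.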

Additional observations from a re-analysis of the deposited data

How the results depend on the processing

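Of the counts by the authors' deposited table, the lower calls among ribosomal protein genes stayed between 75 and 80 with the widest region, windows within 1 kb or 5 kb, or an FDR under 0.01. They came to 41 of 43 tested when only regions at the ends of no other gene were kept, to 28 with a log2 fold of at least 1 at coverage scaling, and to 52 of 54 at the region over the start, an alternative chosen after seeing the data. The first and last test fewer genes. The higher calls came to 1 at the start. With the mean over gene-end regions, which has no FDR of its own, 81 genes were below 0 and 1 was above. The median log2 fold change moved to -1.08 with the mean over regions and -0.86 at coverage scaling. Rpl5 turned to -0.35 with the mean over regions and to -1.04 at its widest region, within 1 kb and at the start. Rps3 turned to -0.20 with the mean, and to -1.09 with regions of no other gene and at the start. Other regions than the main one enter each of these values.

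The number of genes with a gene-end peak in every library was 81 in every setting run. The difference in covered length (-649.8 bp) was -328.5 bp within 1 kb of a gene end, where the windows are shorter, and -687.25 to -615.75 bp without each library in turn. Replicate numbers did not pair the libraries (correlations of same-numbered deviations -0.07, 0.17 and 0.02), and a replicate block gave -649.8 bp and no single-gene p below 0.25. Genes whose main difference was above 0 changed sign: with single-read peaks Rpl36al gave -63.0, Rpl5 -50.7, Rps3 -129 and Rps6 -173 bp, and without each library in turn Rpl36al ranged from -5.0 to 246.5, Rps24 from -6.83 to 351.7, Rpl5 from -215.8 to 276.2 and Rps6 from -91.0 to 65.5 bp. The cause of the single-read differences was not tested. Of the other single-gene settings, 198 log2 fold changes kept direction and side of the threshold, and 12 no longer passed it. In covered length 198 differences kept direction, though not always size. With single-read peaks Rpl19 went from -881 to -84.7 bp and Rpl24 from -781.3 to -47.0 bp, while Rps3a1 went from -900 to -1302.3 bp. The lower KO coverage limits what can be read from peak edges, and the small number of libraries limits every single-gene test.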

Other observations

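Some ribosomal proteins are made as fusions with ubiquitin or a ubiquitin-like protein. Of these, Rps27a had a log2 fold change of -1.85 (FDR 3.56e-10, the authors' deposited table), and Fau, which carries a small-subunit protein, stood at -0.83 by the authors' deposited table.

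Among the genes that define the cells, Il23r, the receptor that maintains Th17 cells, had a log2 fold change of -2.17 (FDR 3.10e-19, the authors' deposited table), and Cd4 one of 6.77 (FDR 3.44e-168), in a genotype that carries Cd4-cre. Cd79a (-1.47), Cd8b1 (-2.0), Spi1 (-1.61), Epor (-1.25) and Klf1 (-1.12), each a marker of another cell type, were also lower in KO by the authors' deposited table. They were the only markers of other cells with a tested region, and 64.3% of all tested genes were lower.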
